A study of Mus musculus with 66 samples.

Results

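The genes described here encode the eukaryotic translation initiation factors and elongation factors of the mouse, together with the proteins named after them that bind or modify them. A transcript was a member when its symbol in the RNA table began with Eif or Eef followed by a digit. There were 64 such transcripts of 59 symbols, out of 9481 transcripts of 8978 symbols in all. The table holds only transcripts whose protein had also been quantified in these cultures, so it does not list every gene of these families, and Eif5a2, Eif2s3y and Eif3j2 are not analysed here.

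Initiation factors bring the initiator methionyl tRNA, the small ribosomal subunit and the capped mRNA together. eIF2 carries the initiator tRNA, eIF2B recharges eIF2 with GTP, eIF3 holds the small subunit in a form that can take up an mRNA, and the eIF4 factors recognise the cap and unwind the leader of the mRNA. Elongation factors then deliver aminoacyl tRNAs (eEF1A, recharged by the eEF1B subunits) and move the ribosome along by a codon (eEF2). In the intestine, the dividing cells of the crypt make the biosynthetic machinery of a growing cell, whereas enterocytes on the villus no longer divide and make large amounts of digestive enzymes and transporters.

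Small intestinal organoids of the mouse, spheres of epithelium grown in a gel, were kept in 3 media. ENR holds EGF at 50 ng/ml, Noggin and R-Spondin-1 (5%) and gives a mixture of crypt and villus cells. CV is ENR with CHIR99021 (3 µM), a GSK3 inhibitor that raises Wnt signalling, and valproic acid (1 mM), an inhibitor of histone deacetylases, and enriches stem cells, while EN is ENR without R-Spondin-1 and enriches enterocytes. RNA and open chromatin (ATAC) were measured in 4 libraries per culture, and the histone marks H3K27ac, H3K4me3 and H3K27me3 in 3 libraries per culture. All cultures thus shared EGF and Noggin. CV differed from EN in R-Spondin-1, CHIR99021 and valproic acid together and, by the authors' methods, in a longer time in its medium. The effects of these differences cannot be told apart in that comparison. The labels do not say that the libraries of a culture came from separate animals, so p-values measure the spread between these libraries, which may be technical. Organoids hold epithelium only, with no stroma, immune cells or vessels.

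The RNA libraries held 5630977 to 8859757 counts, and counts are given below as CPM, which scales each library to a common total. The markers of the labelled cells were checked first. All 7 stem cell markers were lower in EN than in CV, and their summed level was 634 to 684 CPM in CV, 1766 to 1918 in ENR and 42.0 to 49.5 in EN. Proliferation markers were also lower in 8 of 8 transcripts (summed 1192 to 1228 CPM in CV, 1700 to 1797 in ENR and 162 to 172 in EN). Between CV and ENR, however, 4 of the 7 stem cell markers were lower in CV and 2 were higher. Of the 8 proliferation transcripts, 6 were lower in CV and none was higher. As a set, these bulk RNA markers thus did not place CV above ENR. The authors' description of CV as enriched in stem cells also rests on other evidence, such as imaging of an Lgr5 reporter. All 9 enterocyte markers were higher in EN, with sums of 7650 to 8057 CPM in CV and 57679 to 60243 in EN, but so were 6 of 6 goblet, 3 of 3 enteroendocrine and 3 of 3 tuft cell markers, and 2 of 5 Paneth cell markers, with 3 lower. The defining stem cell markers were near 0 in EN (Lgr5 averaged 1.81 CPM, Axin2 1.22 CPM and Ascl2 0.220 CPM, against 90.1, 69.3 and 5.85 CPM in CV), and the part of these shifts in the values below was not tested. In bulk RNA, fewer cells of a type and less RNA per cell cannot be told apart.

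The initiation and elongation factor mRNAs were mostly lower in EN than in CV. Of 63 transcripts tested (edgeR's quasi-likelihood test over all 12 RNA libraries, adjusted p under 0.01), 44 fell and 9 rose, and 10 did not pass the test. Over all 9288 transcripts tested, 41.2% were lower and 35.2% were higher. Of the members, 22 fell by at least 2-fold, against 20.1% of all transcripts. The members' log2 fold changes ran from -3.13 to 0.86 with a median of -0.70, beside a median of -0.08 over all transcripts. In 43 members all 4 EN values were below all 4 CV values, in 10 they were all above, and in 10 the cultures overlapped. The share of all transcripts without overlap was not counted, so such counts, here and below, only describe the members.

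**Figure D1:**
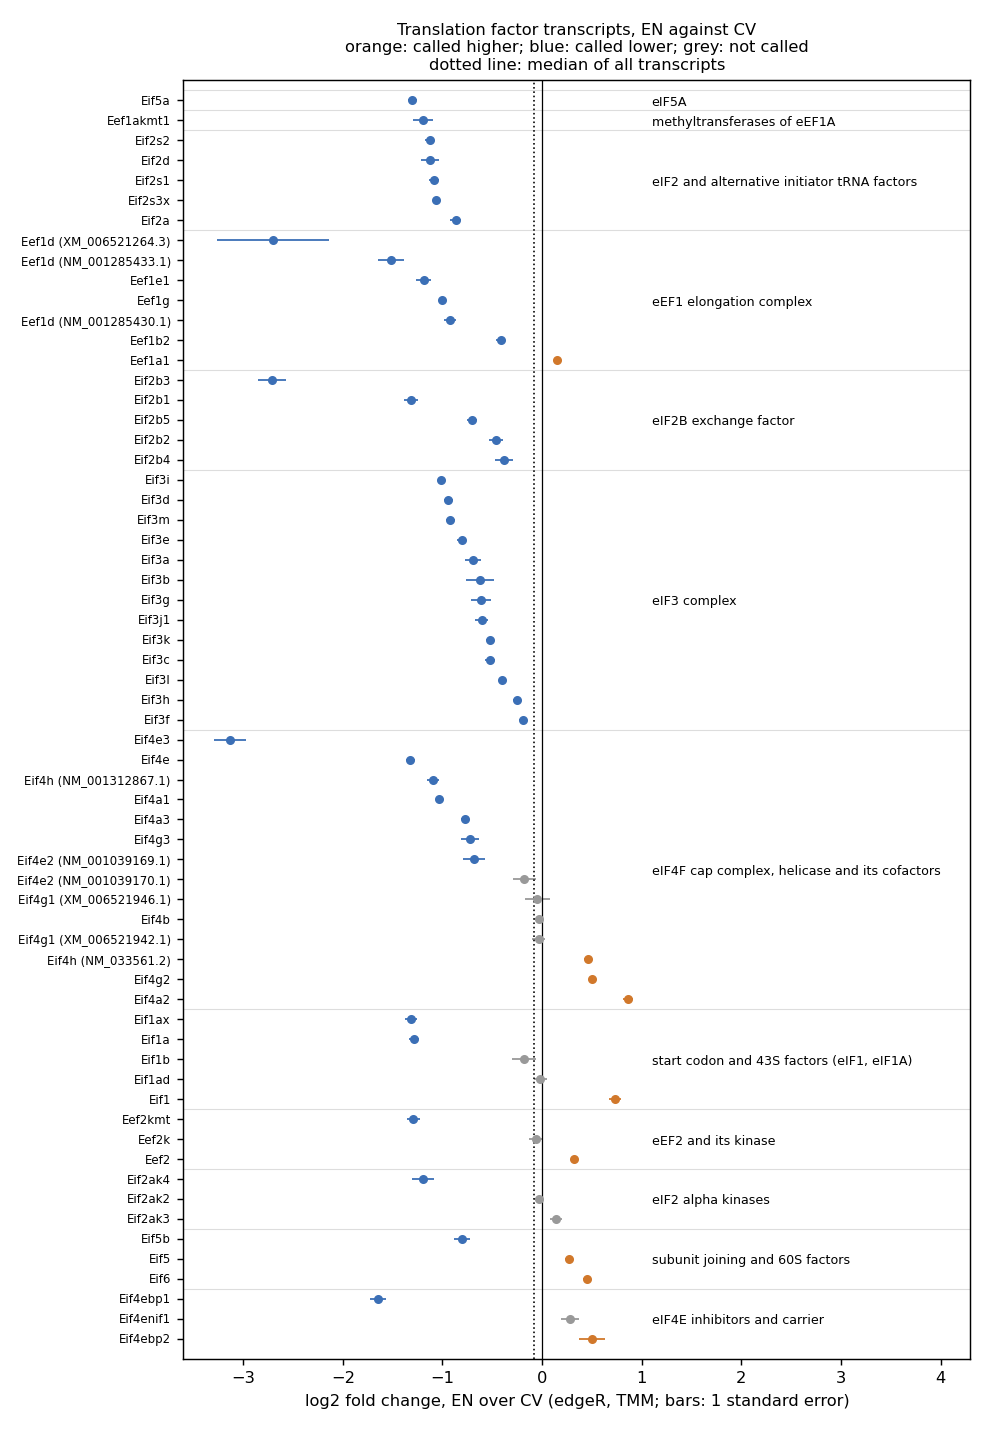
Log2 fold change of EN over CV for the 63 tested transcripts, grouped by role, with bars of 1 standard error (edgeR, 4 libraries per culture) and colours for transcripts that passed the test. All points of the eIF2, eIF2B and eIF3 groups lie left of 0, and the 9 rises, which are scattered over several groups, lie between 0.15 and 0.86.

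How libraries are scaled to each other moved the whole scale and with it the split of the calls. The TMM scaling used above holds the typical transcript near 0, but the median of all transcripts was -0.34 on TPM, the share of each transcript in its library corrected for length, -0.49 when libraries were scaled to their added spike-in RNAs, and 0.69 on the deposited mRNA copies per cell. With the spike-in scaling 46 members fell and none rose, where 46.2% of all transcripts fell and 15.9% rose. On mRNA copies 5 members fell and 14 rose, where 13.6% of all transcripts fell and 47.0% rose. The distance between members and all transcripts hardly moved. The median member lay 0.62 below the median transcript under TMM and spike-in scaling, 0.63 below it on TPM and 0.62 below it on copies. Rescaling whole libraries shifts all transcripts by nearly the same amount, and copies are a power function of TPM in each library. The distance could therefore hardly change. Positions against the median transcript, here and below, are thus not separate support from each scale. In all, 46 of 63 members lay below the median transcript under TMM, spike-in and copy scaling, and 49 did on TPM. Directions below are given on the TMM scale and are therefore relative to the typical transcript.

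**Figure D2:**
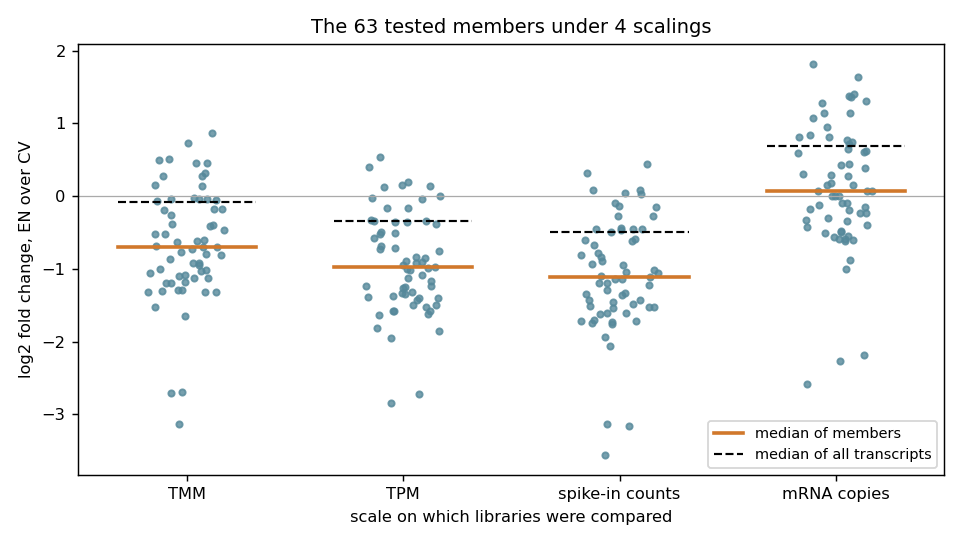
Log2 fold change of EN over CV of the 63 tested members on 4 scales, each point a transcript, with the median of the members (orange line) and of all transcripts (dashed line). Both lines move together, from -0.70 and -0.08 under TMM to 0.07 and 0.69 on mRNA copies.

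Levels of different genes are compared in TPM, which takes transcript length into account. Eef1a1, which encodes the factor that carries aminoacyl tRNAs to the ribosome, was by far the most abundant member. Its mean was 14690 TPM in CV, 20528 in ENR and 13080 in EN, and it ranked 2, 2 and 4 among all transcripts. Eef2, the translocation factor, came next with 2367 TPM in CV, 2493 in ENR and 2372 in EN. Eef1a1 alone made up 50.3% to 61.1% of the summed TPM of all members. That sum was 28353 to 29041 TPM in CV, 33837 to 34271 in ENR and 21194 to 22266 in EN, and the 3 cultures did not overlap. Without Eef1a1 the sums were 13827 to 14136 in CV, 13346 to 13649 in ENR and 8255 to 8740 in EN. ENR thus stood highest only through Eef1a1, while EN was lowest either way.

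Among the cap-binding complex and its helicase, the mRNAs of the 2 forms of eIF4A, the helicase that unwinds mRNA leaders, moved in opposite directions. Normalized CPM of Eif4a1 were 1159.5, 1217, 1215 and 1203 in CV, 1372, 1417, 1410.0 and 1414 in ENR, and 566, 592, 597 and 593 in EN. Those of Eif4a2 were 432, 403, 429 and 381 in CV, 589.9, 573, 575 and 543 in ENR, and 699, 743, 801 and 749 in EN. The cultures did not overlap for either gene: ENR was highest and EN lowest for Eif4a1, and EN was highest and CV lowest for Eif4a2. From CV to EN Eif4a1 fell by 1.03 on the log2 scale (SE 0.0308, adjusted p = 7.3e-14), and Eif4a2 rose by 0.86 (SE 0.0484, adjusted p = 1.5e-10), which was the highest rise among the members. Eif4a2 stayed above 0 on every scale (0.54 on TPM, 0.44 with spike-ins and 1.82 on copies), although with spike-ins it did not pass the test (adjusted p = 0.0144). The ratio of Eif4a2 to Eif4a1 within a library, which does not depend on how libraries are scaled to each other in TPM or CPM, was 0.269 ± 0.0191 in CV, 0.318 ± 0.0150 in ENR and 0.999 ± 0.0354 in EN (SD, n = 4). Both mRNAs were thus about equally abundant in EN only. The coding sequences of the pair are alike, so that reads from shared stretches were assigned by estimation.

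The stretches just upstream of the start of these genes are shown because their RNA moved apart. Eif1 and Eif1b, a related pair of which only Eif1 passed the test between EN and CV, were added. So was Eif4h, 1 gene whose transcripts moved apart. The stretches are the 250 bases before the RefSeq start site (assembly GRCm38.p6), written 5′ to 3′ on the strand of the gene. Capitals mark the E-box CACGTG and the CCAAT box wherever they stand on either strand.
Eif4a1 (chr11:69672424-69672673, minus strand): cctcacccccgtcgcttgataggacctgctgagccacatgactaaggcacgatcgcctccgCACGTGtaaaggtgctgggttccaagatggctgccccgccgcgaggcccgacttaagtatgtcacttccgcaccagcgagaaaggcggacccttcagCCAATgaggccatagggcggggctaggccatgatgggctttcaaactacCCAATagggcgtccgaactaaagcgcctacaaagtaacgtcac
Eif4a2 (chr16:23107218-23107467, plus strand): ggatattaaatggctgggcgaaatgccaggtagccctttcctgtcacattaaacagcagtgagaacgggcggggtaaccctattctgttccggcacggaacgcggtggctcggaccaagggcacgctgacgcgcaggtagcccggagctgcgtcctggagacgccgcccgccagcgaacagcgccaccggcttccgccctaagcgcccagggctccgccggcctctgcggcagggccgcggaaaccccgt
Eif1 (chr11:100319699-100319948, plus strand): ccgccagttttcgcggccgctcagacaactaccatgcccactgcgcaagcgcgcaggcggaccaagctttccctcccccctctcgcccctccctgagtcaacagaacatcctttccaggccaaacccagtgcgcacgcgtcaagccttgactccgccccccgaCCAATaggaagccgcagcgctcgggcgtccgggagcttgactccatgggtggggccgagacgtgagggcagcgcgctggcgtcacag
Eif1b (chr9:120492356-120492605, plus strand): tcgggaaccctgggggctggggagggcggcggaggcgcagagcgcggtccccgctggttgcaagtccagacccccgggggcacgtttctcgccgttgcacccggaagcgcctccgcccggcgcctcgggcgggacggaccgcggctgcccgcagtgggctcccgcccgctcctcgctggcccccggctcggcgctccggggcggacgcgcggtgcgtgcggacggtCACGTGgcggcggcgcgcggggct
Eif4h (chr5:134639410-134639659, minus strand): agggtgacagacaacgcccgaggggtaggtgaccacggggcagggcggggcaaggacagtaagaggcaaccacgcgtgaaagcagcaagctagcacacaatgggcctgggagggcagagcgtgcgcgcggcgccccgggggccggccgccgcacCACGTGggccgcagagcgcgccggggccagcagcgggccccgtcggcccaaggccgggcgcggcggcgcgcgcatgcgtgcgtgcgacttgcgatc
In Eif4a1 an E-box begins 189 bases and CCAAT boxes 92 and 43 bases before the start, whereas Eif4a2 holds neither. Eif1 holds a CCAAT box at 87 bases, Eif1b an E-box at 24 bases and Eif4h an E-box at 96 bases before the start. Of the 59 symbols, 47 matched the promoter table. The E-box CACGTG stood upstream of 8 of them (17.0%), against 6.02% of all 32851 promoters: Eef2, Eef2k, Eif1b, Eif3f, Eif3k, Eif4a1, Eif4g1 and Eif4h. CCAAT stood in 11 (23.4%, against 33.8% of all), and CCGGAAGT, an ETS-type motif, in 2 (4.26%, against 2.88%), Eif3d and Eif3l. Of the 8 genes with an E-box, Eef2 and 1 transcript of Eif4h rose from CV to EN. Eif4a1, Eif3f, Eif3k and the other transcript of Eif4h fell, and Eef2k, Eif1b and Eif4g1 did not pass the test. The shares above take 1 promoter per member symbol but every promoter of the full set, expressed here or not. They compare unlike sets, and their differences were not tested.

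The eIF4E family binds the cap. Eif4e itself, the main cap-binding protein, had 159, 174, 169 and 167 CPM in CV, 119.8, 123, 125 and 120.2 in ENR, and 63.0, 71.7, 67.4 and 66.1 in EN. The cultures did not overlap, and the log2 fold change of EN over CV was -1.32 (SE 0.0444, adjusted p = 2.8e-13). Eif4e3, a divergent member of the family, fell the most of all members. Its values were 26.0, 23.5, 28.6 and 26.99 CPM in CV, 2.18, 2.13, 3.04 and 2.01 in ENR, and 2.41, 4.28, 2.50 and 3.02 in EN. It was high in CV only, with a log2 fold change of -3.13 for EN over CV (SE 0.161, adjusted p = 5.1e-11) and of 3.49 for CV over ENR (SE 0.163, adjusted p = 7.9e-11). EN and ENR overlapped (0.36, adjusted p = 0.178). CV is the culture that holds CHIR99021 and valproic acid, and which of them goes with this level cannot be told apart. Eif4e2, a cap-binding protein known as a repressor of certain mRNAs, is listed with 2 transcripts. NM_001039169.1 had 46.6, 50.2, 57.8 and 54.3 CPM in CV and 34.8, 30.6, 38.0 and 26.9 in EN and fell (log2 fold change -0.68, adjusted p = 3.5e-05), and NM_001039170.1 did not pass the test (-0.18, adjusted p = 0.164). The TPM of both transcripts over that of Eif4e was 1.70 ± 0.138 in CV, 2.00 ± 0.0589 in ENR and 3.27 ± 0.317 in EN (SD, n = 4).

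The mRNAs of the proteins that hold eIF4E back also moved apart. Eif4ebp1, which encodes the 4E-BP1 inhibitor released by mTORC1, had 44.3, 41.4, 41.9 and 43.6 CPM in CV, 30.9, 29.6, 34.8 and 32.8 in ENR, and 15.1, 11.8, 13.7 and 13.4 in EN. Eif4ebp2, its relative, had 9.03, 9.74, 9.15 and 8.80 CPM in CV, 9.47, 6.22, 7.44 and 7.55 in ENR, and 13.5, 13.7, 11.1 and 13.5 in EN. Eif4ebp1 fell (log2 fold change EN over CV -1.65, SE 0.0794, adjusted p = 2.2e-11) with no overlap between cultures, and Eif4ebp2 rose (0.50, SE 0.13, adjusted p = 0.0024) with CV and ENR overlapping. The ratio of Eif4ebp1 to Eif4ebp2 in TPM was 9.41 ± 0.663 in CV, 8.59 in ENR (6.52 to 9.61) and 2.11 ± 0.338 in EN, so that Eif4ebp1 was the more abundant of them in all 12 libraries. Relative to Eif4e, Eif4ebp1 was at 1.55 ± 0.0980 in CV and 1.22 ± 0.193 in EN, and the lowest CV library (1.445) and the highest EN library (1.438) were almost level. Eif4enif1, which carries eIF4E into the nucleus, was above CV in all EN libraries but did not pass the test (0.28, adjusted p = 0.0117).

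The mRNAs of the scaffold and cofactors of the helicase were divided. Eif4g2, a scaffold that lacks the part that binds eIF4E, had 366, 336, 352 and 325 CPM in CV, 439.9, 458, 459.8 and 464 in ENR, and 473, 489, 499.8 and 497 in EN (log2 fold change EN over CV 0.51, SE 0.0393, adjusted p = 8.0e-09). Both listed transcripts of Eif4g1, the main scaffold, overlapped between CV and EN (-0.03 and -0.05, adjusted p = 0.651 and 0.736). Eif4g3, its relative, fell (-0.72, adjusted p = 1.6e-06), from 38.0 to 40.0 CPM in CV to 19.4 to 26.98 in EN. Eif4b, a cofactor of the helicase, was at 961 to 1003 CPM in CV and 869 to 1029.8 in EN and did not pass the test (-0.04, adjusted p = 0.447). Eif4a3, the related helicase of the exon junction complex, fell (-0.77, adjusted p = 3.8e-11).

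The other helicase cofactor, Eif4h, is listed with 2 transcripts that moved apart. NM_033561.2 had 279, 281, 295 and 317 CPM in CV, 389, 389, 398 and 395 in ENR, and 421, 416, 379 and 399 in EN. NM_001312867.1 had 289, 297, 277 and 270.0 CPM in CV, 197, 194, 188 and 184 in ENR, and 126, 130.2, 153 and 121 in EN. The transcript NM_033561.2 rose from CV to EN (log2 fold change 0.46, SE 0.0446, adjusted p = 1.1e-07) and the other fell (-1.10, SE 0.0604, adjusted p = 1.2e-10). Their ratio in TPM was 1.01 ± 0.102 in CV, 2.01 ± 0.0799 in ENR and 3.00 ± 0.400 in EN, and the 12 libraries fell into 3 ranges that did not overlap. Because both transcripts belong to 1 gene, their counts rest on how shared reads were divided between them, and the same holds for Eif4e2, Eif4g1 and Eef1d.

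**Figure D3:**
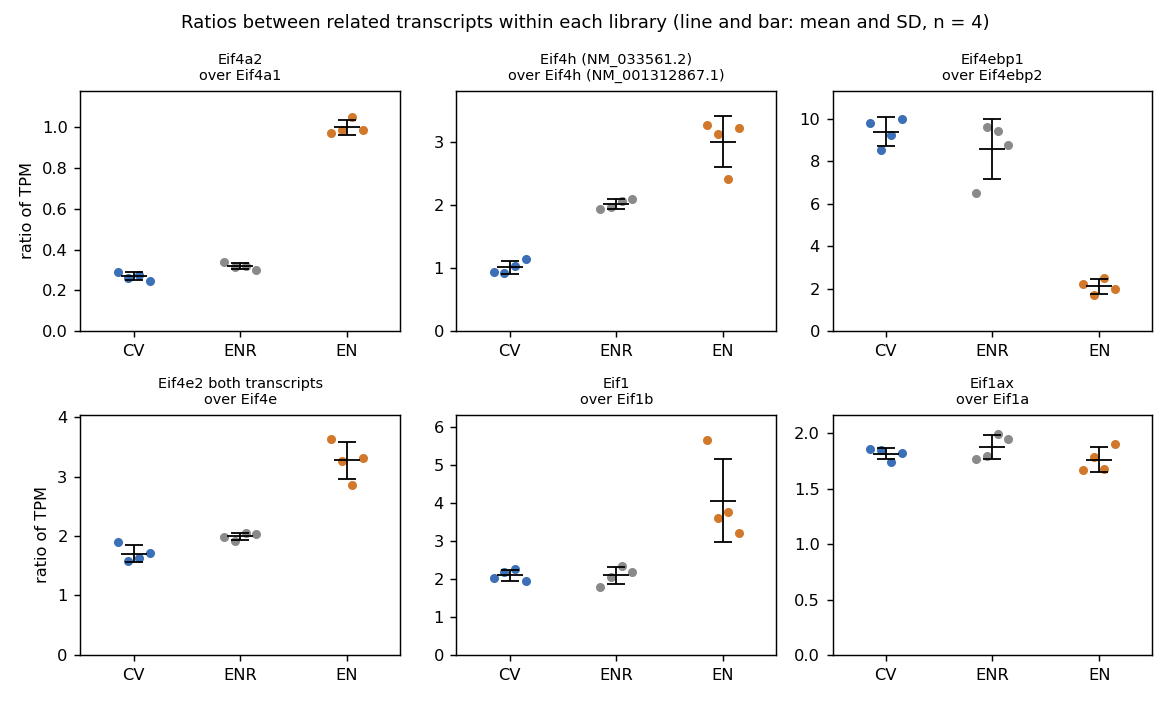
Ratio of TPM between related transcripts in each library (points; line and bar: mean and SD, n = 4 per culture). The other ratios differ between CV and EN without overlap, while that of Eif1ax to Eif1a (1.82 in CV and 1.76 in EN) overlaps.

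The mRNAs of the eIF3 complex, the largest initiation factor, were lower in EN throughout. All 13 of its subunits in the table fell, with log2 fold changes from -1.02 to -0.19 and a median of -0.61. In 12 of them no EN library reached a CV library, the exception being Eif3b (82.3 to 130.4 CPM in CV and 59.0 to 82.6 in EN). All 13 stayed below the median transcript on each of the 4 scales and below 0 with TPM and spike-ins, but 10 of them lay above 0 on mRNA copies. The fall was uneven over the subunits. Eif3i, a structural subunit, went from 347, 338, 348 and 333 CPM in CV to 177, 169, 168 and 162 in EN (-1.02, SE 0.0342, adjusted p = 2.9e-13). Eif3e, the subunit with the highest mean TPM over the 3 cultures, went from 493, 503, 520.2 and 450.1 CPM in CV and 554, 577, 562 and 569 in ENR to 271, 291, 279.7 and 284 in EN (-0.81, SE 0.0429, adjusted p = 7.6e-11). By contrast Eif3f went from 165 to 169 CPM in CV to 136 to 155 in EN (-0.19, adjusted p = 5.4e-04), and Eif3h from 222 to 236 to 183 to 202 (-0.25, adjusted p = 2.4e-05). The TPM of Eif3f over that of Eif3i was 0.349 ± 0.0112 in CV, 0.432 ± 0.0101 in ENR and 0.618 ± 0.0286 in EN, and Eif3e over Eif3h was 1.69 ± 0.0600 in CV and 1.15 ± 0.0497 in EN (SD, n = 4), neither with overlap between CV and EN. Eif3j1, a loosely bound subunit, went from 87.7, 79.6, 76.6 and 72.4 CPM in CV to 49.9, 56.3, 54.6 and 48.2 in EN (-0.60, adjusted p = 4.2e-07). The subunits summed to 3480.4 to 3574 TPM in CV, 3158 to 3259 in ENR and 1729 to 1826 in EN.

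The mRNAs of the carriers of the initiator tRNA all fell. The 3 subunits of eIF2 (Eif2s1, Eif2s2 and Eif2s3x) and the alternative carriers Eif2a and Eif2d all had EN libraries below all CV libraries, with log2 fold changes from -1.13 to -0.87. All 5 were below 0 with TPM, spike-ins and mRNA copies too, although on copies none of them passed the test (adjusted p from 0.143 to 0.738). Eif2s3x, the GTP-binding subunit and the most abundant of them, had 531, 515, 518 and 491 CPM in CV, 457, 449.6, 439 and 440.2 in ENR, and 242, 253, 249.9 and 239.6 in EN (EN over CV -1.06, SE 0.0344, adjusted p = 1.8e-13). Eif2s1, the subunit that stress kinases phosphorylate, fell by a like amount (-1.08, adjusted p = 9.5e-12), from 232 to 254 CPM in CV to 106 to 122 in EN.

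The mRNAs of all 5 subunits of eIF2B, the exchange factor of eIF2, were lower in EN, but to different degrees. Eif2b3, a subunit of its catalytic part, had 19.4, 23.6, 28.1 and 23.4 CPM in CV, 18.4, 18.7, 18.8 and 20.0 in ENR, and only 3.48, 2.57, 4.10 and 4.03 in EN. Its log2 fold change of -2.71 (SE 0.144, adjusted p = 7.7e-11) was the largest fall after Eif4e3, and EN was also below ENR (-2.40, SE 0.147, adjusted p = 5.2e-10). Eif2b5, the catalytic subunit, had 152, 161, 146 and 149 CPM in CV and 87.5, 103, 91.0 and 92.7 in EN (-0.71, SE 0.0486, adjusted p = 1.8e-09). The ratio of Eif2b5 to Eif2b3 in TPM was therefore 3.81 ± 0.638 in CV, 4.08 ± 0.178 in ENR and 16.1 ± 4.97 in EN. Eif2b1, a regulatory subunit, went from 68.1, 77.5, 72.1 and 81.0 CPM in CV to 29.6, 31.9, 28.7 and 30.1 in EN (-1.32, SE 0.0695, adjusted p = 7.1e-11). Eif2b2 and Eif2b4 fell less (-0.46 and -0.38, adjusted p = 1.9e-05 and 9.0e-04). All 5 lay below the median transcript on each scale, although 3 were above 0 on mRNA copies.

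Of the 3 kinases of eIF2 in the table, which slow initiation under stress, only Eif2ak4 (GCN2, the sensor of uncharged tRNA) passed the test between EN and CV. It went from 22.8, 28.7, 28.8 and 26.7 CPM in CV to 11.1, 13.5, 9.63 and 12.7 in EN (-1.19, SE 0.11, adjusted p = 6.7e-08). Eif2ak2 (PKR, the sensor of double-stranded RNA) had 76.1, 75.8, 79.4 and 70.6 CPM in CV, 73.5, 69.4, 72.7 and 70.6 in ENR, and 74.6, 74.7, 70.1 and 75.0 in EN, and all cultures overlapped (-0.03, adjusted p = 0.514). Eif2ak3 (PERK, the sensor of the endoplasmic reticulum) was at 41.2 to 44.6 CPM in CV, 29.6 to 34.8 in ENR and 44.6 to 49.8 in EN. It did not pass the test between EN and CV (0.14, adjusted p = 0.0569), and EN was above ENR (0.56, SE 0.0659, adjusted p = 1.4e-06).

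Among the factors of start codon selection 1 rose, 2 fell and 2 did not pass the test. Eif1, the gatekeeper of the start codon, had 54.0, 58.6, 57.8 and 53.0 CPM in CV, 64.0, 67.1, 65.3 and 66.6 in ENR, and 101, 91.2, 96.0 and 82.8 in EN. It rose (EN over CV 0.73, SE 0.0608, adjusted p = 1.8e-08), and the 3 cultures did not overlap. Eif1b, its close relative, had 17.9, 18.0, 17.1 and 18.3 CPM in CV and 12.1, 17.1, 17.1 and 17.1 in EN and did not pass the test (-0.18, adjusted p = 0.168). The eIF1A genes, whose product works beside eIF1, fell together. Eif1ax had 121, 123, 129.6 and 116 CPM in CV, 98.3, 93.1, 104 and 105 in ENR, and 46.1, 47.3, 47.3 and 54.8 in EN (EN over CV -1.32, SE 0.0613, adjusted p = 1.5e-11). Eif1a had 235, 242, 271 and 232 CPM in CV, 200.4, 189, 191 and 195 in ENR, and 99.4, 93.8, 102 and 106 in EN (EN over CV -1.29, SE 0.0533, adjusted p = 3.7e-12). The ratio of Eif1ax to Eif1a was 1.82 ± 0.0531 in CV, 1.88 ± 0.110 in ENR and 1.76 ± 0.111 in EN with overlapping ranges, whereas Eif1 over Eif1b was 2.10 ± 0.147 in CV, 2.09 ± 0.231 in ENR and 4.06 ± 1.09 in EN. Sequences within each pair are similar, so their reads may have been divided imperfectly. Eif1ad, an eIF1A-domain protein, was at 60.5 to 73.5 CPM in CV and 60.3 to 67.4 in EN (-0.02, adjusted p = 0.788).

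Among the factors of subunit joining, Eif6, which keeps the large ribosomal subunit apart until it is mature, had 176, 164, 177 and 179 CPM in CV, 165, 156, 171 and 162 in ENR, and 242, 239.8, 238 and 232 in EN. It rose (EN over CV 0.45, SE 0.0387, adjusted p = 2.6e-08), and EN lay above both other cultures, which overlapped. Eif5, which makes eIF2 hydrolyse its GTP, had 232, 235, 235 and 225 CPM in CV, 298, 317, 325 and 294 in ENR, and 266, 288, 275 and 292 in EN (EN over CV 0.27, SE 0.0419, adjusted p = 2.1e-05, but -0.04 on TPM and -0.15 with spike-ins). Eif5b, the GTPase of subunit joining, fell (-0.80, SE 0.0822, adjusted p = 2.3e-07), from 44.3 to 54.0 CPM in CV to 25.0 to 32.4 in EN. Eif5a, which carries hypusine and helps ribosomes past difficult stretches, had 446, 445, 439 and 424 CPM in CV, 383, 379, 376 and 363 in ENR, and 186, 191, 167 and 167 in EN. It fell by 1.30 on the log2 scale (SE 0.0451, adjusted p = 4.1e-13) and was below 0 on all 4 scales.

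**Figure D4:**
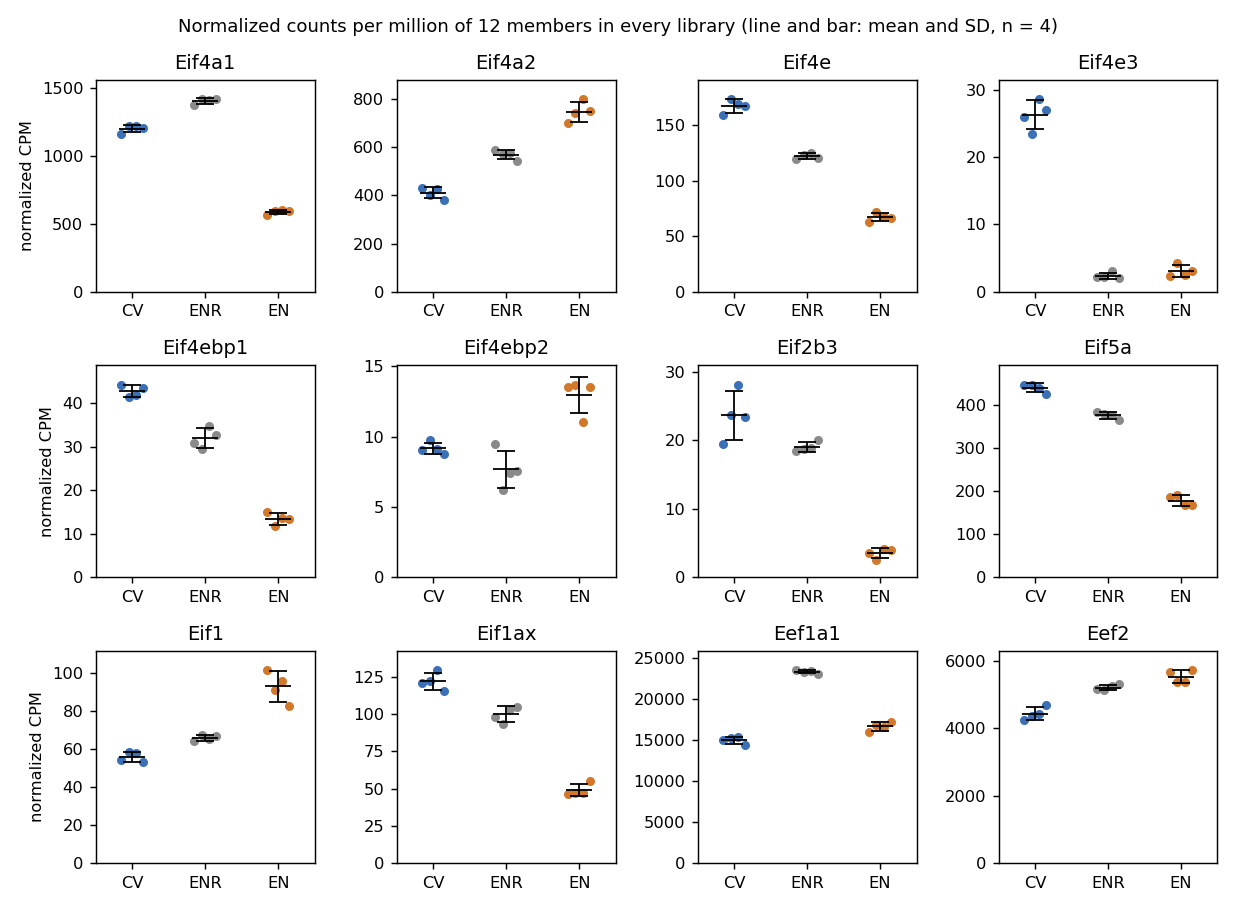
Normalized CPM of 12 members in every RNA library (points; line and bar: mean and SD, n = 4 per culture; each axis starts at 0). Eif4a1 and Eif4a2 go in opposite directions from CV to EN, and Eif4e3 is high in CV only, between 23.5 and 28.6.

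In elongation, the mRNAs of the carrier of tRNA and of its exchange factor parted. Eef1a1 had 15069.8, 15239.9, 15337 and 14372 CPM in CV, 23554, 23358, 23407 and 23136 in ENR, and 16003, 16893, 16623 and 17225 in EN. ENR was highest, and the difference of EN over CV was small (0.15, SE 0.0308, adjusted p = 2.9e-04) and turned below 0 on TPM (-0.17) and with spike-ins (-0.27). The subunits that recharge it fell: Eef1b2 from 943, 995, 1057 and 957 CPM in CV to 745, 798, 687 and 735 in EN (-0.41, SE 0.0454, adjusted p = 4.8e-07), and Eef1g from 1154 to 1172 in CV to 550.5 to 607 in EN (2.01-fold, adjusted p = 1.8e-13). The ratio of Eef1a1 to Eef1b2 in TPM was 16.6 ± 0.665 in CV, 18.3 ± 0.361 in ENR and 24.6 ± 1.63 in EN, and the cultures did not overlap. All 3 transcripts listed for Eef1d, another of these subunits, fell. NM_001285433.1 had 48.4, 56.6, 57.5 and 47.8 CPM in CV and 16.3, 18.8, 13.2 and 24.5 in EN (-1.52, SE 0.131, adjusted p = 2.9e-08). XM_006521264.3 had 3.37, 9.48, 4.51 and 8.55 CPM in CV and 1.07, 0.856, 2.14 and 0 in EN (-2.70, SE 0.564, adjusted p = 4.0e-04), values that vary widely within a culture. Eef1e1, a factor of the multi-tRNA synthetase complex, also fell (-1.19, adjusted p = 7.5e-10).

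Eef1a2, the form of the tRNA carrier known from neurons and muscle, had a count in 1 of 12 libraries, 1 in total, and was not tested. A floor of 3 counts per library corresponds to 0.339 to 0.533 CPM, so its level was not detectable at this depth. Eef1a1 has many processed pseudogenes that are not in the table, and how reads from them were assigned was not tested. Eef1akmt1, a methyltransferase of eEF1A, went from 30.5, 36.4, 33.7 and 30.1 CPM in CV to 15.3, 13.3, 15.9 and 12.5 in EN (-1.20, SE 0.0974, adjusted p = 1.5e-08).

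Eef2 had 4243, 4365, 4433 and 4680.4 CPM in CV, 5148, 5124, 5242 and 5297 in ENR, and 5653, 5375, 5382 and 5722 in EN (EN over CV 0.32, SE 0.0351, adjusted p = 4.8e-07, but -0.10 with spike-ins). EN and ENR differed by 0.09 on the log2 scale and did not pass the test (adjusted p = 0.0304). Eef2k, the kinase that halts eEF2, was at 37.3 to 44.9 CPM in CV, 53.8 to 59.5 in ENR and 37.8 to 40.7 in EN. EN and CV overlapped (-0.06, adjusted p = 0.363), and it was lower in both than in ENR (-0.56 for EN, adjusted p = 6.6e-07, and -0.49 for CV, adjusted p = 3.2e-06). Eef2kmt, which methylates eEF2, fell from 36.4 to 42.2 CPM in CV to 15.5 to 16.8 in EN (-1.29, SE 0.067, adjusted p = 5.6e-11).

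ENR, the mixed culture, was compared with both others. The comparisons share libraries, so their values are given side by side. Against ENR, 45 members were lower in EN and 6 were higher, where 37.2% of all transcripts were lower and 35.5% higher. The 6 that rose were Eif1, Eif1ad, Eif2ak3, Eif4a2, Eif4ebp2 and Eif6. The median of the members was -0.53 and that of all transcripts -0.01. Between CV and ENR, 23 members were higher in CV and 16 were lower, where 30.2% of all transcripts were higher and 29.8% lower, and the medians were 0.08 and -0.01. Few of these calls held with spike-ins or on copies. With the spike-in scaling 2 members were higher in CV (Eif4e3 and Eif4e2 NM_001039169.1) and 4 lower (Eef1a1, Eef1b2, Eef2k and Eif4a2), where 11.2% of all transcripts were higher and 17.2% lower. On mRNA copies 3 were higher and none was lower, where 15.5% of all transcripts were higher and 5.18% lower. None of the differences between CV and ENR reached 2-fold in the lower direction, and Eif4e3 was the member that passed it in the other.

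Most roles held both directions between CV and ENR under TMM. In CV, 5 were higher and 5 lower among the cap complex and helicase, and 2 and 3 among the eIF3 subunits. In the eEF1 group they were 2 and 3, and the 2 higher were Eef1e1, of the multi-tRNA synthetase complex, and 1 transcript of Eef1d. Of the 5 carriers of the initiator tRNA 4 were higher in CV and none was lower, Eif2d by the most (0.45, adjusted p = 2.3e-04). Eif1a, Eif1ax, Eif4e (0.46, adjusted p = 1.2e-07), Eif5a, Eif5b, Eef1e1 (0.38), Eef2kmt (0.28) and 1 transcript of Eef1d (NM_001285433.1, 0.44) were higher too. Among those lower in CV were Eef1a1 (-0.64, SE 0.0309, adjusted p = 1.1e-10), Eef1b2 (-0.49), Eef1g (-0.13), Eef2 (-0.23), Eif4a1 (-0.23), Eif4a2 (-0.47), Eif4b (-0.35), Eif4g2 (-0.40) and Eif5 (-0.41). By the means of the 3 cultures, 34 of 63 members were highest in CV, 21 in ENR and 8 in EN, and 47 were lowest in EN. The order CV, ENR, EN was the most frequent, in 29 members, and in 19 of them the libraries of the 3 cultures did not overlap at either step. The order ENR, CV, EN held in 18 members (8 without overlap), and EN, ENR, CV in 5 (4 without overlap). These orders were not counted over all transcripts.

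Other genes of translation, from lists drawn up with results of these data known, are given for context, beside the 41.2% of all transcripts that fell and the 35.2% that rose. Of 10 transcripts of termination and recycling factors 7 fell from CV to EN and 2 rose, and Abce1, which splits ribosomes after termination, fell by 1.55. The largest fall there was that of Gspt2, at 3.13 CPM in CV and 0.159 in EN, which is under the floor. Of 13 transcripts of poly(A)-binding proteins and partners 6 fell and 3 rose. The range there was from Paip2b, an inhibitor of the poly(A)-binding protein (-2.33), to Pdcd4, an inhibitor of the eIF4A helicase (1.47). Pdcd4 averaged 58.9 CPM in CV, 216 in ENR and 163 in EN. Of 24 transcripts of mTORC1 signalling 11 rose and 8 fell, with Sesn1 (1.56) and Sesn3 (-1.21), both sestrins, which restrain mTORC1, at the ends. The hypusine and diphthamide enzymes, which modify eIF5A and eEF2, had 6 falls and no rise in 9 transcripts, the largest in Dph2 (-1.79). In the integrated stress response list, 1 of 4 transcripts rose (Dnajc3, an inhibitor of eIF2 kinases, 0.75) and 2 fell (Gcn1l1, the partner of GCN2, -0.42, the more so). Of 15 transcripts of mitochondrial and selenocysteine translation factors 9 fell and 3 rose, from Tsfm (-1.58) to Secisbp2l (0.99).

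The start sites of most of these genes lay in regions with high scores for open chromatin and active marks. Within 500 bp of the annotated start sites (assembly mm9, 280 starts) lay 73 of the 94469 regions of the table, at least 1 for each of the 59 symbols, and 20 of them also lay within 500 bp of the start of another gene. The median score of these regions was 92.9 for H3K27ac, a mark of active promoters and enhancers, against 4.22 over all regions. It was 69.2 for ATAC (5.75 over all), 77.8 for H3K4me3, a promoter mark (1.11), and 6.67 for the repressive mark H3K27me3 (7.67). The region set holds enhancers as well as promoters, and the start regions were longer (median 1669 bp, against 220 bp over all), so these medians compare long promoters with a mixture.

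Between EN and CV the start regions gained H3K27ac more often than they lost it (limma on log2(score + 1), adjusted p under 0.05). Of 72 regions tested, 16 were higher in EN and 1 was lower, where 7.03% of all regions differed. The split by direction over all regions was not counted. The median log2 difference was 0.37 over the tested start regions and -0.14 over all regions. Start regions were longer and had higher scores than most, so these values compare unlike regions. For ATAC, 8 were higher and 7 lower of 72 (35.2% of all regions differed). For H3K4me3, 3 of 71 were higher and none lower (4.90% of all), and for H3K27me3 none of 73 differed (0.528% of all), with 3 at an unadjusted p under 0.05. The gains of H3K4me3 were at Eif5a, at Eif4enif1 (76 to 83 in CV and 121 to 131 in EN, 0.65, adjusted p = 0.00264) and at Eef1a1 (83 to 102 and 139 to 167, 0.68, adjusted p = 0.013). Their number was near the share over all regions, and none of them was left with a replicate block. ATAC was higher in EN at Eif2a (184 to 221 in CV and 273 to 312 in EN, 0.55, adjusted p = 5.4e-05), at Eif4g1 (60 to 94 and 111 to 148, 0.76, adjusted p = 2.4e-04) and at Eif1b (13 to 23 and 35 to 45, adjusted p = 0.00113), none of which rose in RNA, and at a second region of Eif4ebp2 (49 to 66 and 63 to 91, 0.38, adjusted p = 0.0465), whose RNA rose. The other 4 gains were at Eif2ak2, whose RNA did not pass the test, and at Eif3a, Eif3j1 and Eif4e3, whose RNA fell. The 7 losses were at Eif4ebp1, Eif1ax, Eif2b1, Eif2b4 and Eif4a3, whose RNA fell, and at regions of Eef2k and Eef1a1 with low scores (at most 14). The H3K27ac calls rest on how the spread is estimated, since none of the regions passed the test when its trend with the level was left out, and 9 passed without EN replicate 4 and 11 without EN replicate 2. CV cells are treated with valproic acid, which acts on histone acetylation, and its part cannot be told apart from that of cell state.

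The direction of H3K27ac at the start site followed that of the RNA only in part. Of the 9 members that rose, 6 had a start region higher in H3K27ac in EN, among them Eif4a2 (chr16:23107237-23109397, scores of 156 to 171 in CV and 232 to 325 in EN, log2 difference 0.77, adjusted p = 0.00333). At Eif1 (chr11:100180922-100182661) the scores were 80 to 110 in CV and 182 to 243 in EN (1.23, adjusted p = 9.2e-05). At Eif4ebp2 (chr10:60913646-60915406) they were 99 to 116 and 240 to 290 (1.27, adjusted p = 5.6e-05), and at Eif6 82 to 132 and 175 to 259 (1.00, adjusted p = 0.00251). Of the 44 members whose RNA fell, however, 8 had a region that was higher in EN and 1 had a region that was lower. The region of Eif4h stands in both counts, since 1 of its transcripts rose and the other fell. At Eif5a, whose RNA fell 2.47-fold, H3K27ac scores were 107 to 136 in CV and 229 to 325 in EN (1.12, adjusted p = 3.8e-05), and those of H3K4me3 were 123 to 126 and 178 to 215 (0.66, adjusted p = 0.00759). At Eif4a1 (chr11:69484039-69486299), whose RNA fell 2.04-fold, H3K27ac scores were 127 to 155 and 197 to 249 (0.62, adjusted p = 0.0275). The median log2 difference in H3K27ac was 0.33 for members whose RNA fell and 0.68 for those whose RNA rose. Across the 63 members Spearman's rho between the RNA and the H3K27ac changes was 0.35, a description only, since members are not independent and transcripts of 1 symbol share a region.

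**Figure D5:**
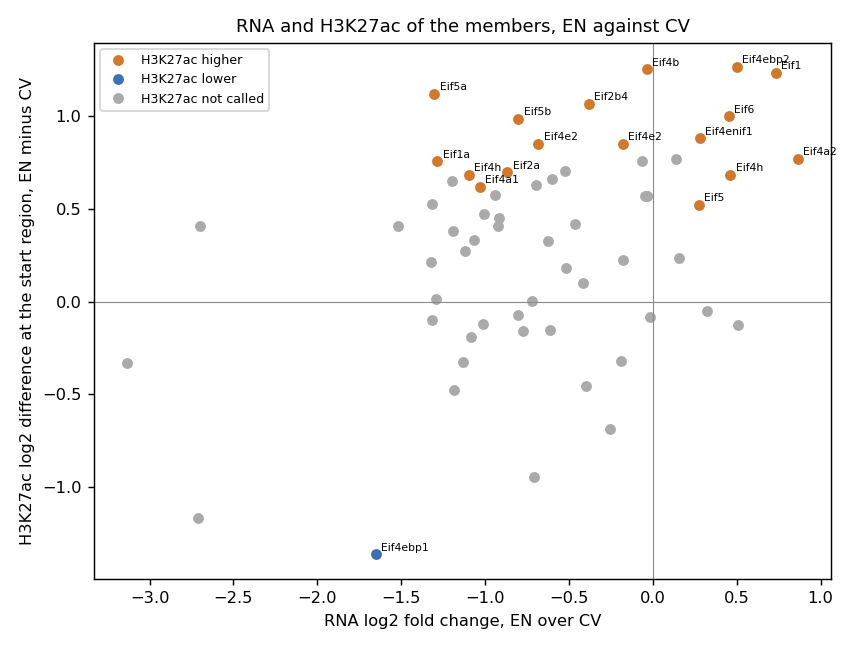
Log2 change of H3K27ac at the start region against log2 fold change of RNA, EN over CV, for the 63 tested members. Most members lie left of 0 for RNA and above 0 for H3K27ac, and Eif4ebp1, with -1.65 and -1.36, is low on both axes.

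RNA and ATAC were both lower in EN at 5 members, which were Eif4ebp1, Eif1ax, Eif2b1, Eif2b4 and Eif4a3. Eif2b1, for example, had ATAC scores of 23 to 41 in CV and 13 to 24 in EN (log2 difference -0.63, adjusted p = 0.0305), and Eif1ax 100 to 131 and 74 to 98 (-0.40, adjusted p = 0.0193). Of them H3K27ac was also lower at Eif4ebp1 and higher at Eif2b4. The start region of Eif4ebp1 (chr8:28370606-28371965, mm9), which covers the start of the gene on the plus strand, had ATAC scores of 104 to 121 in CV, 68 to 103 in ENR and 47 to 65 in EN (log2 difference EN over CV -1.01, SE 0.141, adjusted p = 2.1e-05). Its H3K27ac scores were 58 to 77 in CV, 63 to 93 in ENR and 20 to 33 in EN (-1.36, SE 0.333, adjusted p = 0.00862). No EN library reached a CV library for either measure. H3K4me3 at the same region was at 51 to 63 in CV and 36 to 55 in EN (-0.26, adjusted p = 0.544).

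At both members with the largest falls in RNA, Eif4e3 and Eif2b3, no mark at the start region passed the test in the lower direction. Eif4e3 was more open in EN, with ATAC scores of 43 to 59 in CV and 60 to 87 in EN (0.57, SE 0.149, adjusted p = 0.00552), opposite to its RNA. H3K4me3 there was at 45 to 60 in CV and 23 to 31 in EN, which did not pass the test (-0.93, adjusted p = 0.0629). At Eif2b3 (chr4:116691740-116693116) ATAC scores overlapped (30 to 39 in CV and 26 to 37 in EN), and H3K27ac was at 25 to 53 in CV and 10 to 21 in EN without passing the test (-1.17, adjusted p = 0.113). At Eef1a2, which gave almost no counts, the region at the start (chr2:180891550-180891652) had ATAC, H3K27ac and H3K4me3 scores of 0 or 1 in every library, and H3K27me3 scores of 18 to 62 in CV, 31 to 32 in ENR and 11 to 40 in EN.

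Binding of Hnf4g, a transcription factor of enterocytes, was measured in 1 library per culture, so that no test between cultures is possible. The 73 start regions, which make up 0.296% of the length of all regions, held 0.209% of the reads in regions in CV (176 reads, exact 95% interval 0.179% to 0.242%), 0.231% in ENR (816 reads, 0.216% to 0.248%) and 0.359% in EN (6515 reads, 0.350% to 0.367%). Over their summed length, the start regions thus held a lower share than all regions together in CV and ENR, and a higher one in EN. The median start region, however, held more reads per kb than the median of all regions in every culture. These medians were 0.918 and 0 in CV, 4.41 and 3.64 in ENR, and 36.4 and 19.5 in EN. In CV and ENR the direction therefore depended on the measure. The intervals cover counting error only, and the libraries differed in depth, with 84340 reads in regions in CV and 1816497 in EN. Among the start regions in EN, those of Eif4g1, Eif5 and Eif2a held the most Hnf4g reads, given as CPM of the reads in regions. That of Eif4g1 also held the most in CV and ENR. It had 249 CPM in CV (exact 95% interval 154 to 381), 284 in ENR and 333 in EN. Its CV interval thus covered its EN value. Eif5 had 142 CPM in CV (73.5 to 249), 139 in ENR and 313 in EN. Eif2a had 47.4 CPM in CV (12.9 to 121), 62.4 in ENR and 186 in EN. These values were not corrected for region length.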

How the data were processed

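RNA was measured in 12 libraries of mouse small intestinal organoids, 4 each in CV, ENR and EN. The authors deposited, per transcript, expected counts and TPM from kallisto (version 0.43.0 in the submitters' processing notes), with strand-specific counting against an index of RefSeq transcripts limited to those whose proteins they had quantified plus spike-in RNAs, and a score, the mRNA copies per cell, which is a power function of TPM in each library. For chromatin the authors deposited a normalized score per library for 94469 regions, the union of peaks (BWA, Picard and MACS2 2.0, mm9), and raw counts of Hnf4g reads in the same regions. How the scores were normalized is not given in the sources used here.

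Expected counts were rounded, and the 92 spike-in transcripts were kept out. The 9288 transcripts counted above 0 in 4 or more libraries were tested with edgeR 4.0.16 (TMM, quasi-likelihood test, 1 fit of 12 libraries, Benjamini-Hochberg over all transcripts, call at adjusted p under 0.01) in R 4.3.3. Normalized CPM use TMM library sizes. Chromatin scores above 0 in at least 3 libraries were tested with limma 3.58.1 (trend, log2(score + 1), call at adjusted p under 0.05), which takes the place of the count test since the values are not counts. A region belonged to a member when it lay within 500 bp of a start in GENCODE vM1 (mm9). Ratios were taken in TPM within a library. Python 3.11.15, pandas 2.3.3, scipy 1.17.1 and matplotlib 3.10.9 were used for the rest. Promoter sequences are from RefSeq (GRCm38.p6), a build other than that of the files, and none of their coordinates was compared with a region.

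Named with values in every library were among called members whose CV and EN libraries did not overlap, the 8 that rose most and the 8 that fell most, the member with the highest mean TPM of each role, and related pairs such as Eif4a1 and Eif4a2. Eif1ad, Eif2a, Eif2d, Eif2s1, Eif2ak3, Eif2ak4, Eif2b2, Eif2b4, Eif3b, Eif3f, Eif3h, Eif3i, Eif4a3, Eif4b, Eif4enif1, Eif5b, Eef1b2, Eef1e1, Eef1g, Eef2k, Eef2kmt and the chromatin examples were named after their values were seen. The members and gene lists were chosen with earlier results of these data known. Alternatives were DESeq2 1.42.0, limma on TPM, spike-in scaling, mRNA copies, other filters and thresholds, counts summed per gene, a replicate block and leaving out each library, and, chosen after seeing the data, median-centred copies and a replicate block over all 9 libraries of a histone mark. The scripts were tested on simulated counts. The Hnf4g knockout and its control were not analysed here.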

Additional observations from a re-analysis of the deposited data

Results flagged for a closer look

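In the named members, 102 groups of 4 libraries were examined for a library that stood apart from the other 3 (Dixon's test), and 7 did, where chance gives about 1 in 20. In EN, Eif1ax was at 54.8 CPM in replicate 4 and 46.1 to 47.3 in the others. Eif1b was at 12.1 CPM in EN replicate 1 and 17.1 in the others, Eif2ak2 at 70.1 in EN replicate 3 and 74.6 to 75.0 in the others, and Eif4ebp2 at 11.1 in EN replicate 3 and 13.5 to 13.7 in the others. Eif4a1 was at 1372 CPM in ENR replicate 1 (1410.0 to 1417 in the others) and at 566 in EN replicate 1 (592 to 597 in the others), and Eif4e3 was at 3.04 in ENR replicate 3 (2.01 to 2.18 in the others). Leaving out each library in turn moved none of the calls of these 6 genes between EN and CV.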

How the results depend on the processing

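The 44 falls and 9 rises from CV to EN were 43 and 10 with DESeq2, 41 and 9 with counts summed per gene, and 44 and 9 with a replicate block. On TPM there were 4 rises with a pseudocount of 1 and 4 with 5, with spike-in scaling 0, on mRNA copies 14 rises and 5 falls, and at 2-fold or more 0 rises and 22 falls. Against ENR, EN had 0 rises (spike-ins), 17 rises and 2 falls (copies), and 0 and 11 at 2-fold or more. For CV against ENR, 23 rises and 16 falls became 2 and 4 (spike-ins), 3 and 0 (copies), and 1 and 0 at 2-fold or more, with 9 falls on TPM at either pseudocount (9 and 9) and 14 rises on median-centred copies, which were added once the data had been seen. H3K27ac regions numbered 17, 0 without a trend and 9 after quantile normalization, and H3K4me3 regions 3, 10 at a mean score of at least 5, 5 after quantile normalization and 0 with a replicate block. The cause of these shifts was not tested.

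Without 1 library in turn, counts ran from 44 to 44 for EN below CV, 9 to 10 above CV, 43 to 45 below ENR, 6 to 6 above ENR, 22 to 24 for CV above ENR, 13 to 16 below ENR, and for regions from 10 to 15 (ATAC), 9 to 17 (H3K27ac, 9 without EN replicate 4 and 11 without EN replicate 2), 2 to 6 (H3K4me3, 6 without EN replicate 1) and 0 to 0 (H3K27me3).

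The log2 fold change of EN over CV turned below 0 for Eef2 with spike-ins (-0.10), for Eif5 on TPM (-0.044 and -0.042) and with spike-ins (-0.15), and for Eef1a1 on TPM (-0.17 and -0.17) and with spike-ins (-0.27). On copies it turned above 0 in 24 of 63 members, among those named by the rule Eif2b5 (0.077), Eif3e (0.0042), Eif1b (0.60), Eif3j1 (0.18) and Eif4e2 (NM_001039169.1, 0.065, and NM_001039170.1, 0.62). With DESeq2, copies and centred copies it was 0.028, 0.78 and 0.082 for Eif2ak2, 0.028, 0.81 and 0.11 for Eif4g1 (XM_006521942.1), and 0.011, 0.75 and 0.055 for Eif4g1 (XM_006521946.1), and it was 0.028 for the former without EN replicate 4, and 0.0042 and 0.074 for the latter without CV replicate 3 and EN replicate 3, with a range down to -0.21 without EN replicate 4. None of the last 3 transcripts passed the test under TMM.

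Replicate numbers did not pair the RNA libraries: same-numbered libraries correlated at 0.0133 on average (-0.059 to 0.0955), and 3 of 12 correlated best with their own number. For ATAC the mean was 0.17 (0.0695 to 0.46, 9 of 12 best), for H3K4me3 0.0501 (5 of 8), for H3K27ac -0.0028 (0 of 7) and for H3K27me3 -0.0078 (1 of 9). With a replicate block, 19 ATAC regions differed in place of 15. For the histone marks a block over all 9 libraries, added once the data had been seen because few numbers are shared by all cultures, left 0 regions of H3K27ac, 0 of H3K4me3 and 0 of H3K27me3. Using all libraries of a mark was not run, since 39 are in the table. Depth limits Eef1a2 and members at a few CPM.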
